A study of Mus musculus with 14 samples.

Results

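DNA methylation enzymes and their partners are described here in mouse small intestinal tumour organoids in which the histone methyltransferase Suv4-20h2 was targeted with short hairpin RNAs. The 9 genes were chosen by name: Dnmt1, Dnmt3a, Dnmt3b, Uhrf1, Hells, Tet1, Tet2, Tet3 and Smchd1. All 9 were among the 55421 genes listed in the files of set 1 and among the 17490 listed in the files of set 2. Set 1 held 3 libraries of organoids with a hairpin against exon 4 of Suv4-20h2 (hairpin 1) and 3 libraries with a control hairpin (control 1). Set 2 held 4 libraries with a hairpin against exon 9 (hairpin 2) and 4 with a control hairpin (control 2). The organoid line is called APT in the labels, which do not spell out the letters, so its driver mutations are not given here, and the labels call each hairpin or control a clone. All groups, controls included, carried a doxycycline-inducible hairpin and received 0.5 µg/ml doxycycline for 4 days. Poly(A) RNA was sequenced from stranded libraries, and the deposited values are counts per gene.

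In mammals, methylation of cytosine in CG dinucleotides is laid down by Dnmt3a and Dnmt3b and is copied after each round of replication by Dnmt1, which Uhrf1 brings to newly replicated sites methylated on a single strand. The Snf2-type remodeller Hells opens packed chromatin to these enzymes, and Smchd1, an unusual structural-maintenance-of-chromosomes protein, helps to keep methylated genes of the inactive X chromosome and of imprinted clusters silent. Tet1, Tet2 and Tet3 oxidise methylcytosine, which begins its removal, and in the intestine Dnmt1 and Uhrf1 are known for their high expression in the dividing cells of the crypt.

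Total counts ran from 9272134 to 26284079 per library. Suv4-20h2 itself, listed as Kmt5c, stood at 53.6, 64.3 and 56.1 CPM (counts scaled to the size of each library) in hairpin 1, against 72.3, 75.8 and 67.3 CPM in control 1. It stood at 114, 111, 99.3 and 106 CPM in hairpin 2, against 129, 121, 116 and 128 CPM in control 2. The hairpin libraries lay below the control libraries in both sets, as in 6.34% of all tested genes in set 1 and 8.42% in set 2. The difference was 0.31 on the log2 scale in set 1 and 0.20 in set 2, but neither passed edgeR's quasi-likelihood test after Benjamini-Hochberg adjustment (adjusted p = 0.801 and 0.0977). The adjusted p of Kmt5c in set 2 was 0.00741 where the replicate number was a block, 0.0466 with DESeq2 and 0.0392 with limma voom. Its values in the other fits of set 2 are not given here, so how far the difference holds across settings is not shown. Its relative Kmt5b, the other H4K20 methyltransferase of this family, averaged 79.6 ± 31.0 CPM in hairpin 1 and 84.3 ± 21.4 CPM in control 1 (SD, n = 3 each), and 116 ± 12.3 CPM in hairpin 2 and 105 ± 9.18 CPM in control 2 (SD, n = 4 each). The labels do not say that the libraries of a group came from separate cultures, so the p-values measure the spread between libraries, which may be technical. In bulk RNA, fewer cells that express a gene and less of its RNA in each cell cannot be told apart. Some libraries stood apart, which touches several results below: replicate 1 of hairpin 1 had a goblet marker sum of 111 CPM, against 1901 and 1917 CPM in replicates 2 and 3 and 861 to 1370 CPM in the control 1 libraries, and replicate 4 of both hairpin 2 and control 2 had the lowest S phase sums of set 2. All 9 epithelial markers were detected in all groups. Fabp1 and Apoa4, which mark mature enterocytes, were at 0 in every library of set 1. Of 10 enterocyte markers, 6 were tested in set 1. Slc5a1, also tested, averaged 60.3 ± 53.3 CPM in hairpin 1 and 50.3 ± 7.39 CPM in control 1. The sum of the 10 was 56.0 to 119 CPM in hairpin 1 and 53.1 to 73.9 CPM in control 1.

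Promoter sequence was examined because several of the genes were lowest in the same libraries of set 2 (below). RefSeq (GRCm38.p6) gave 14 promoter windows for the 9 genes, each running from 250 bases before to 50 bases after an annotated start. They were searched on both strands for 4 words bound by the E2F factors of the replication programme, TTTCCCGC, TTTCGCGC, TTTGCCGC and TTTGGCGC. The words were found in 3 of the 14 windows, 1 each of Dnmt1, Uhrf1 and Hells, and in 2.26% of the 32851 windows of all genes. No window of the other 6 genes held one, which says only that these letters are not in those windows. Of the 6 genes that were lowest in replicate 4 of both hairpin 2 and control 2, 3 (Dnmt1, Uhrf1 and Hells) have a match and 3 (Tet1, Tet2 and Smchd1) have none. How many of all tested genes were lowest there was not counted. The 3 windows with a match are shown on the strand of the gene, with the matches (or their reverse complements) in capitals. The Dnmt1 window, on the minus strand at chr9:20952574-20952873, holds 2 separate matches, and the Uhrf1 window at chr17:56304063-56304362 and the Hells window at chr19:38930740-38931039, both on the plus strand, hold 1 each.
Dnmt1: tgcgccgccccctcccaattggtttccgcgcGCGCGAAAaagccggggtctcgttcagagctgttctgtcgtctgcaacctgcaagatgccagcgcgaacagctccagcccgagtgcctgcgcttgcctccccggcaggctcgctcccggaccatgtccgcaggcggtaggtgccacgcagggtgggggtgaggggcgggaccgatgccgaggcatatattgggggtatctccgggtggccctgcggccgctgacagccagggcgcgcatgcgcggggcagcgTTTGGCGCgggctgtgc
Uhrf1: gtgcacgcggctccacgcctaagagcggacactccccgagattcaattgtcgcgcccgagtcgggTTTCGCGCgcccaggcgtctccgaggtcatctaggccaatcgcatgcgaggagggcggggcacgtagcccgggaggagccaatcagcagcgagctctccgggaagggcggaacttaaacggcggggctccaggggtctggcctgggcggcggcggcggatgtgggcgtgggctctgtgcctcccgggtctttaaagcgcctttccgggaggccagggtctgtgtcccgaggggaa
Hells: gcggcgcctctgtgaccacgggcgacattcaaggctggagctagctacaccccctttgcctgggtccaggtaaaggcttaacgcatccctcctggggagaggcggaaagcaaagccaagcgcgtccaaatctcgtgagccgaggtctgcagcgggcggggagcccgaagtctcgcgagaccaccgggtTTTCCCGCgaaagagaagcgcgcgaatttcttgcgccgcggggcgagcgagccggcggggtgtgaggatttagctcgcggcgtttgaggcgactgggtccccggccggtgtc
The windows hold 33, 33 and 34 CG dinucleotides in the order Dnmt1, Uhrf1 and Hells, against a median of 7 in all windows, of which 11.7% hold 30 or more. The 11 windows of the 9 genes without a match hold 2 to 57, and 5 of them hold 30 or more, among them 57 in Tet2 and 40 in Smchd1. A match is a description of the letters and was not tested for binding. The share of windows with a match was taken over all windows and not over those of like CG content. The search followed a pattern seen in these same data, and a link between the matches and that pattern was not tested.

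Per kilobase of exon, Dnmt1 and Uhrf1 were the most abundant of the 9 genes in all 4 groups and Tet1 the least. Uhrf1 averaged 51.3 ± 8.53 CPM per kb in hairpin 1 and 55.7 ± 10.5 CPM per kb in control 1 (SD, n = 3 each), and Dnmt1 followed with 31.7 ± 3.18 CPM per kb in hairpin 1 and 36.9 ± 2.38 CPM per kb in control 1. In set 2 Dnmt1 came first, at 31.1 ± 6.53 CPM per kb in hairpin 2 and 32.0 ± 4.46 CPM per kb in control 2 (SD, n = 4 each), and its library range overlapped that of Uhrf1, which averaged 21.9 ± 5.03 CPM per kb in hairpin 2 and 23.7 ± 4.54 CPM per kb in control 2. Hells ranked next in set 1, apart from its neighbours. Tet3 ranked next in set 2, where its range overlapped that of Hells in control 2 and that of Uhrf1 in hairpin 2. Tet2, Smchd1, Dnmt3a and Dnmt3b lay lower, and several of their ranges overlapped. Among the 3 DNA methyltransferases, Dnmt1 made up 90.3 ± 2.05% of the summed level per kb in hairpin 1 and 92.7 ± 1.43% in control 1, and 73.9 ± 5.97% in hairpin 2 and 77.6 ± 2.04% in control 2. The share of Dnmt3a was 5.92 ± 3.43% in hairpin 1 and 3.29 ± 0.81% in control 1, and 19.5 ± 4.79% in hairpin 2 and 16.2 ± 1.75% in control 2. Among the Tet enzymes, Tet3 held 76.9 ± 7.81% in hairpin 1 and 78.2 ± 2.65% in control 1, and 73.8 ± 1.39% in hairpin 2 and 72.1 ± 1.86% in control 2. The control groups stood at different levels, with 6.60 ± 0.212 CPM per kb of Dnmt3a in control 2 and 1.30 ± 0.268 in control 1, 5.69 ± 0.719 of Tet2 in control 2 and 0.99 ± 0.137 in control 1, and 14.8 ± 1.16 of Tet3 in control 2 and 3.58 ± 0.481 in control 1. The sets were filed with different gene lists and normalised separately, and their levels were not tested against each other.

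**Figure D1:**
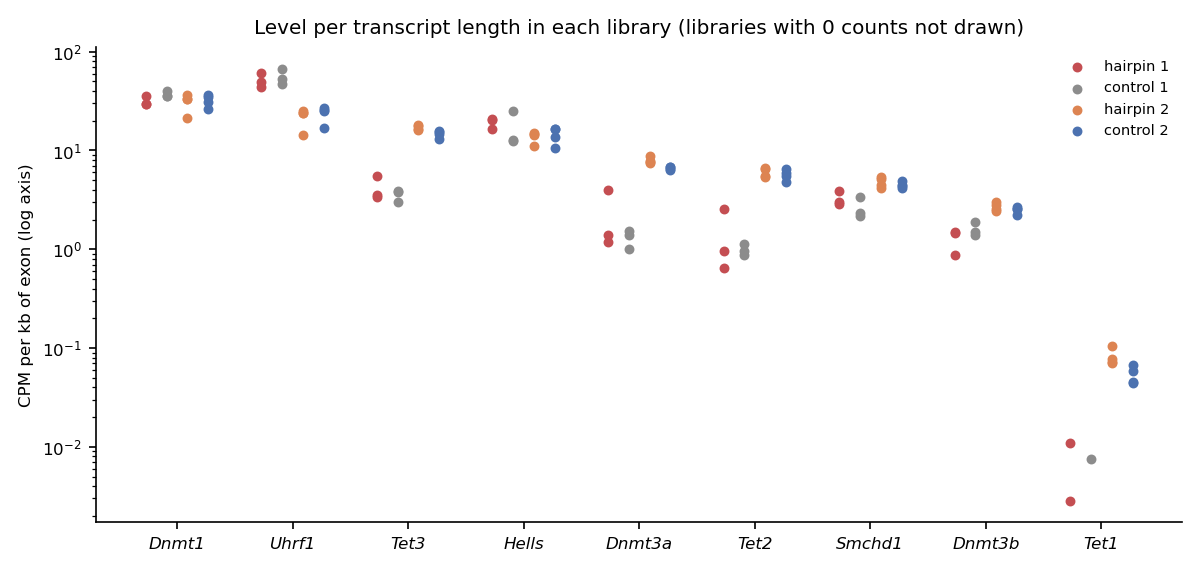
Level of the 9 genes in CPM per kb of exon (log axis), 1 point per library, with hairpin 1, control 1, hairpin 2 and control 2 from left to right for each gene and libraries with 0 counts not drawn. Dnmt1 and Uhrf1 have the highest means in every group, and Tet1 lies lowest, at no more than 0.105 CPM per kb.

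Across all genes, edgeR called 0 of 13540 tested genes in set 1 (733 at an unadjusted p under 0.05; DESeq2 called 22) and 854 of 14126 in set 2, which is 6.05%. Of the 9 genes, 8 passed the filter on low counts in set 1 and all 9 did in set 2. None of the 8 was called in set 1 by edgeR, DESeq2 or limma voom. With edgeR none had an unadjusted p under 0.05 (5.41% of all tested genes did), while limma voom gave unadjusted p of 0.0434 for Dnmt1 and 0.0353 for Hells (adjusted p = 0.202 and 0.186). In set 2 edgeR called 1 of 9, Dnmt3a, which was higher in hairpin 2 (2.04% of all tested genes were called higher and 4.01% lower). At an unadjusted p under 0.05 there were 3 of 9, Dnmt3a, Tet1 and Tet3, against 19.8% of all tested genes. With 1 call among 9 genes the share rests on a single gene. With the replicate number as a block, 2 of 9 were called, Dnmt3a and Tet3, both higher, against 20.4% of all tested genes (10.2% higher and 10.1% lower). The median log2 fold change of the genes was 0.20 in set 1, against 0.03 over all tested genes, and turned to -0.04, against -0.02 over all tested genes, without hairpin 1 replicate 1. It was 0.09 in set 2, against 0.005 over all tested genes.

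**Figure D2:**
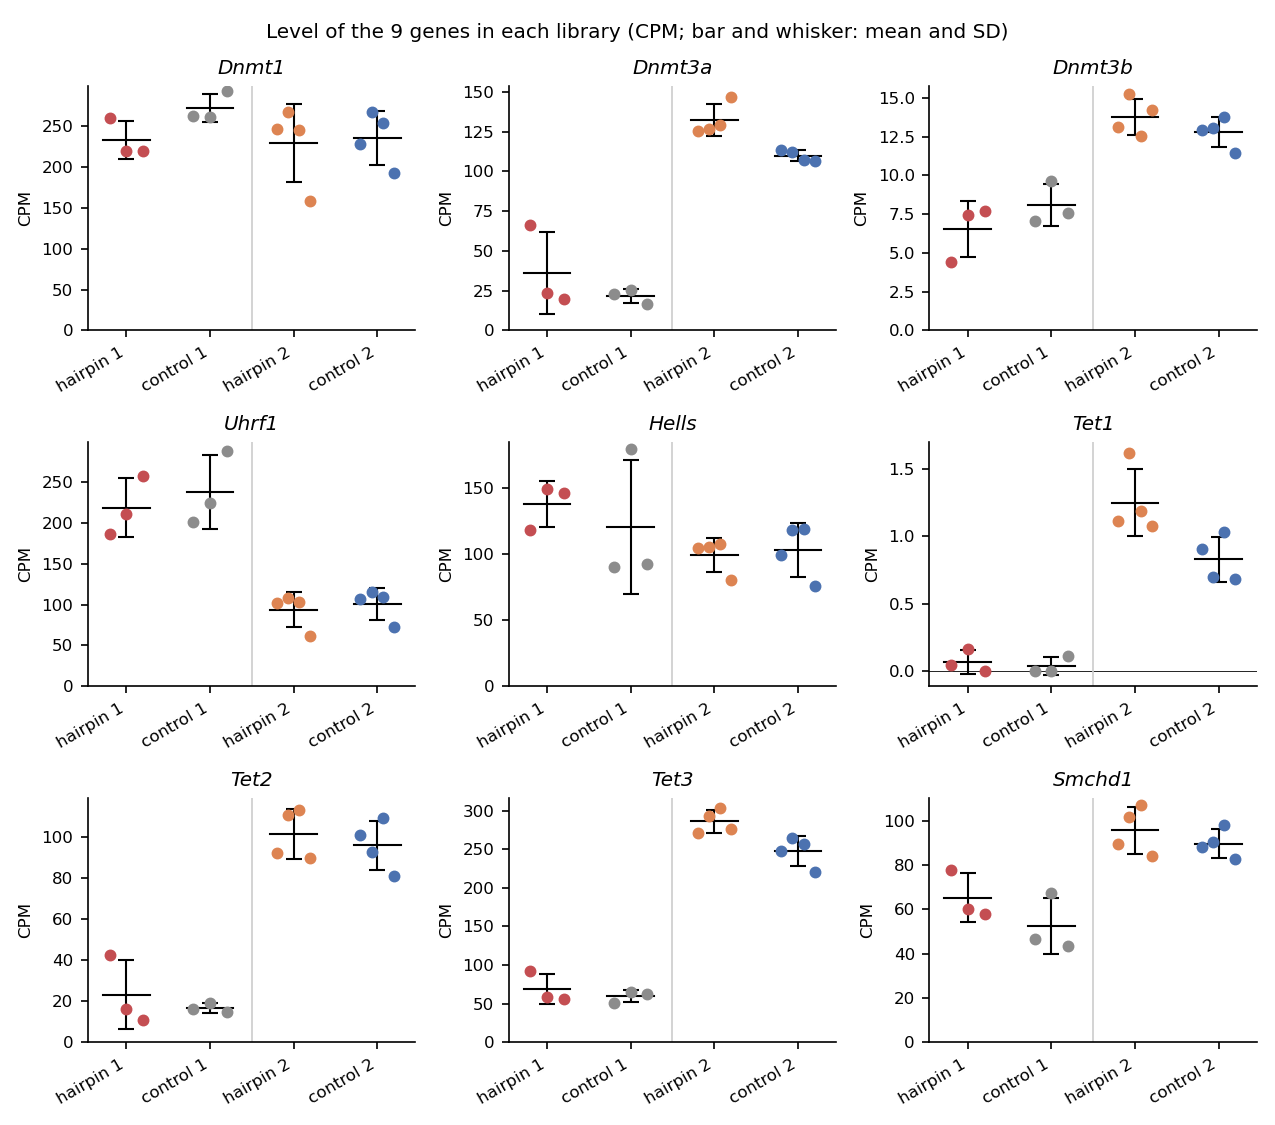
CPM of the 9 genes in each library of hairpin 1, control 1, hairpin 2 and control 2, with 1 point per library, the mean as a horizontal bar and the SD as whiskers. Dnmt3a, Tet1 and Tet3 lie higher in all 4 hairpin 2 libraries than in all 4 control 2 libraries, and replicate 1 of hairpin 1, the leftmost point, is high for Dnmt3a and Tet2.

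Dnmt3a, a methyltransferase that sets new methylation, was higher in hairpin 2. In the main edgeR fit of set 2, which had no replicate block, it was the 1 gene of the 9 called. Tet3 was called beside it with the block, with limma voom and without both replicate 4 libraries. With the block and scaling within chromosomes together, Tet3 alone was called. Dnmt3a stood at 125, 127, 129 and 147 CPM in hairpin 2, against 113, 112, 107 and 106 CPM in control 2. The 4 hairpin 2 libraries all lay above the 4 control 2 libraries, as in 6.88% of all tested genes (the reverse held in 8.42%). The log2 fold change was 0.26 (SE 0.0625, edgeR adjusted p = 0.0360). Dnmt3a lies on chromosome 12 (GRCm38 chr12:3806007-3914443), whose 380 other measured genes were themselves shifted by a median of 0.13 on the log2 scale in hairpin 2. Only chromosome 13 had a higher median in set 2, at 0.19. The gene exceeded the median of its chromosome by 0.13 and stood at percentile 85.5 of the genes there. Over the 19 measured genes within 5 Mb the median was 0.18. Its tested neighbour on the left, Dtnb, at a distance of 24.2 kb, averaged 47.0 ± 2.16 CPM in hairpin 2 and 39.9 ± 2.19 CPM in control 2 (SD, n = 4 each), with a log2 fold change of 0.24 (SE 0.0642, edgeR adjusted p = 0.0607, and 0.00852 in the blocked fit). The neighbour on the right, Efr3b, at 48.1 kb, was low, at 0.697 ± 0.355 CPM in hairpin 2 and 0.802 ± 0.112 CPM in control 2. When each library was scaled within each chromosome, the log2 fold change of Dnmt3a was 0.13 (edgeR adjusted p = 0.325, and 0.118 with the replicate number as a block), so the call was lost. The call was also lost without any 1 of control 2 replicates 1 to 4 or hairpin 2 replicates 1 to 3 (adjusted p 0.0581 to 0.0920), and was kept without hairpin 2 replicate 4 (log2 fold change 0.21, adjusted p = 0.0242). In the joint model of all 14 libraries its log2 fold change in set 2 was 0.26 with an adjusted p of 1.00.

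By library, the excess of Dnmt3a over the control 2 mean on the log2 scale was 0.19, 0.21, 0.23 and 0.42 in hairpin 2 replicates 1 to 4, while chromosome 12 lay 0.13, 0.13, 0.15 and 0.12 above it. The chromosome shift was thus nearly even over the 4 libraries, and replicate 4, where Dnmt3a was highest, did not have the highest chromosome median. In set 1 Dnmt3a stood at 66.0, 23.2 and 19.6 CPM in hairpin 1, against 23.0, 25.2 and 16.6 CPM in control 1. A single library, hairpin 1 replicate 1, was high, and the others overlapped with control 1. The log2 fold change was 0.75 (SE 0.483, edgeR adjusted p = 0.801) and became -0.02 without that library. In that library chromosome 12 lay 0.66 above the control 1 mean and Dnmt3a 1.61, against chromosome medians of 0.02 and 0.005 in hairpin 1 replicates 2 and 3. The median of chromosome 12 in set 1, 0.31, was the highest of any chromosome measured. The part of the chromosome shift in the Dnmt3a difference was not tested beyond the scaling above.

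**Figure D3:**
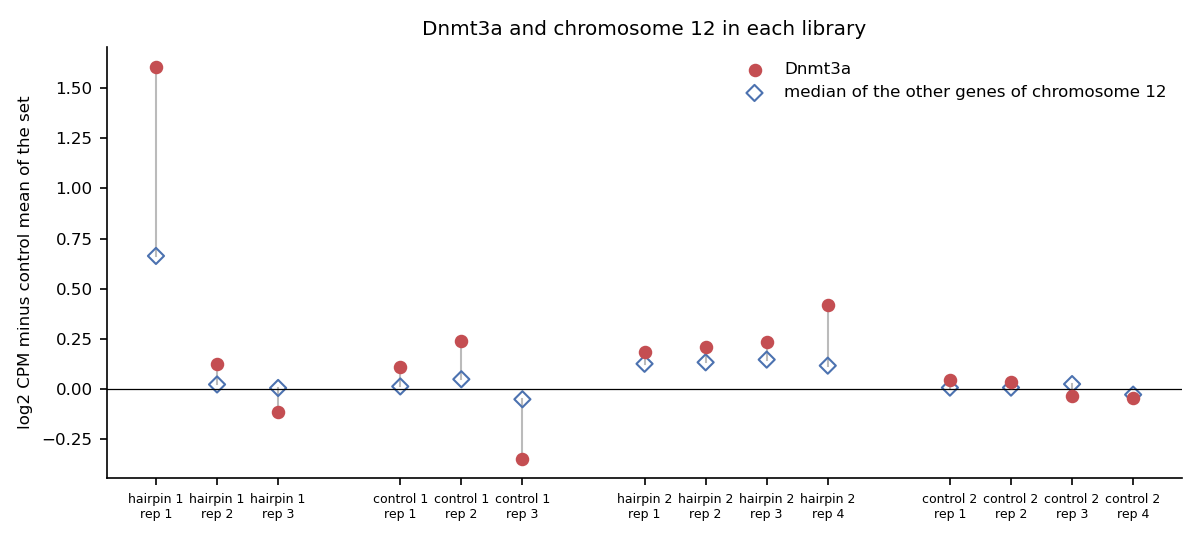
Log2 CPM of Dnmt3a (filled circles) and the median of the other genes of chromosome 12 (open diamonds) in each library, each as the difference from the control mean of its set. In hairpin 2 both lie above 0 in all 4 libraries, and in hairpin 1 only replicate 1 lies far from 0, at 1.61 for Dnmt3a and 0.66 for the chromosome.

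Dnmt3b, the other de novo methyltransferase, passed no test in either set. It stood at 4.43, 7.47 and 7.68 CPM in hairpin 1, against 7.04, 9.62 and 7.55 CPM in control 1. It stood at 13.1, 15.2, 12.6 and 14.2 CPM in hairpin 2, against 12.9, 13.0, 13.8 and 11.4 CPM in control 2. The groups overlapped in both sets, and the log2 fold changes were -0.31 (SE 0.353) in set 1 and 0.11 (SE 0.0966) in set 2, beside chromosome 2 medians of 0.05 and -0.01. Without hairpin 1 replicate 1 the set 1 value was -0.09, and without control 1 replicate 2 it was -0.16.

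The maintenance genes Dnmt1, Uhrf1 and Hells passed no test in either set. Dnmt1 stood at 261, 220.0 and 220.3 CPM in hairpin 1, against 263, 262 and 293 CPM in control 1. The hairpin 1 libraries all lay below the control 1 libraries, as in 6.34% of all tested genes (6.50% lay above), but the nearest values, 261 and 262 CPM, all but touched, and the log2 fold change was -0.22 (SE 0.173, edgeR adjusted p = 0.823; chromosome 9 median 0.07). In set 2 Dnmt1 stood at 247, 268, 245 and 159 CPM in hairpin 2, against 228, 267, 254 and 193 CPM in control 2, and the groups overlapped (log2 fold change -0.04, SE 0.155; chromosome 9 median -0.02). Uhrf1 stood at 186, 211 and 258 CPM in hairpin 1, against 201, 224 and 287 CPM in control 1. It stood at 102, 108, 103 and 61.6 CPM in hairpin 2, against 107, 116, 109 and 72.5 CPM in control 2. The groups overlapped in both sets, and the log2 fold changes were -0.12 (SE 0.219) and -0.11 (SE 0.185), beside chromosome 17 medians of -0.06 and -0.02. Hells stood at 118, 150 and 146 CPM in hairpin 1, against 90.1, 179 and 92.2 CPM in control 1. It stood at 105, 105, 107 and 80.0 CPM in hairpin 2, against 99.0, 118, 119 and 75.7 CPM in control 2. Here too the groups overlapped, with log2 fold changes of 0.19 (SE 0.302) and -0.05 (SE 0.145), beside chromosome 19 medians of -0.09 and -0.02. In set 1 the value for Hells was 0.60 without control 1 replicate 2 (edgeR adjusted p = 0.688), and 0.05 without control 1 replicate 1 or replicate 3. These small differences also turned in direction with 1 library left out. Uhrf1 became 0.06 in set 1 without control 1 replicate 3 and 0.05 in set 2 without hairpin 2 replicate 4. In set 2 Dnmt1 became 0.11 and Hells 0.04 without hairpin 2 replicate 4, and both were also above 0 without control 2 replicate 2 or replicate 3.

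In set 2 the lowest values of these 3 genes carried the same replicate number in both groups. Replicate 4 was the lowest library of its group for Dnmt1, Uhrf1 and Hells in both hairpin 2 and control 2. The summed level of 20 S phase genes, among them the Mcm helicase subunits and Pcna, was 1807, 1856, 1785 and 1199 CPM in hairpin 2, against 1737, 1913, 1799 and 1306 CPM in control 2, so that replicate 4 was the lowest there as well. Of the other genes described here, Tet1, Tet2 and Smchd1 were also lowest in replicate 4 in both groups, while Dnmt3a was highest there in hairpin 2. In set 1 the S phase sum was 2066, 3108 and 3608 CPM in hairpin 1, against 2436, 3082 and 3128 CPM in control 1. Hairpin 1 replicate 1, the lowest of these, was also the lowest of its group for Uhrf1 and Hells but the highest for Dnmt1. None of the 20 S phase genes and none of 15 mitosis genes was called by edgeR in either set. At an unadjusted p under 0.05 there was 1 of each in set 2, against 19.8% of all tested genes. In set 1 there was none, against 5.41% of all tested genes. The most abundant of the S phase genes were Mcm7, with 437 ± 149 CPM in hairpin 1 and 516 ± 55.4 CPM in control 1, and in set 2 the ribonucleotide reductase subunit Rrm1, with 200 ± 57.9 CPM in hairpin 2 and 197 ± 38.2 CPM in control 2. Mcm6 averaged 186 ± 40.7 CPM in hairpin 2 and 207 ± 32.7 CPM in control 2 (log2 fold change -0.15, edgeR adjusted p = 0.696, and 0.0455 with the replicate number as a block). With that block 5 of the 20 S phase genes were called in set 2 (Rrm2 and Tyms higher, Mcm3, Mcm6 and Cdt1 lower). Of the 15 mitosis genes 1 was called (Ccnb1, higher), where 20.4% of all tested genes were called. With the block and scaling within chromosomes together, only Tyms and Mcm3 kept the call. Rrm2 lies on chromosome 12 and Ccnb1 on chromosome 13, whose medians in set 2 were 0.13 and 0.19. The division marker Mki67 averaged 427 ± 52.6 CPM in hairpin 1 and 521 ± 69.4 CPM in control 1, and in set 2 it averaged 392 ± 124 CPM in hairpin 2 and 430.0 ± 91.7 CPM in control 2. The topoisomerase Top2a averaged 464 ± 17.1 CPM in hairpin 1 and 419 ± 55.0 CPM in control 1, and in set 2 it averaged 586 ± 58.0 CPM in hairpin 2 and 608 ± 64.8 CPM in control 2.

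**Figure D4:**
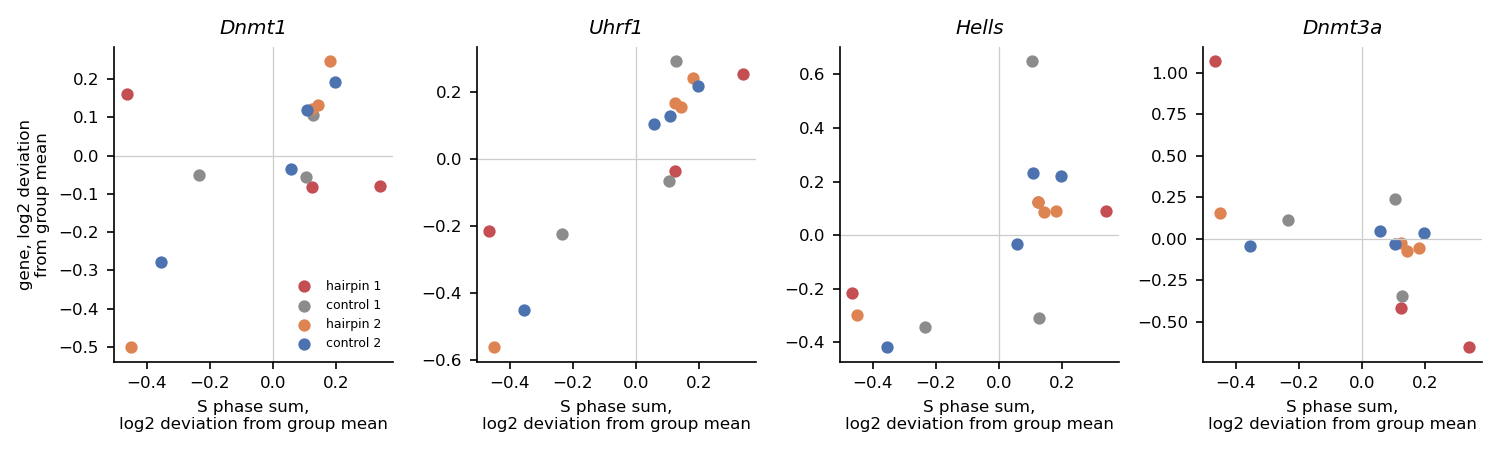
Log2 deviation of Dnmt1, Uhrf1, Hells and Dnmt3a from the mean of their group (vertical axes) against that of the S phase sum (horizontal axes), 1 point per library, coloured by group. The hairpin 2 and control 2 libraries at the lower left for Dnmt1, Uhrf1 and Hells are the replicate 4 libraries, and the point at the upper left for Dnmt3a is hairpin 1 replicate 1.

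Of the Tet enzymes, Tet1 and Tet3 lay higher in every hairpin 2 library than in every control 2 library, without passing the test in the main edgeR fit. Groups were apart in this direction in 6.88% of all tested genes, and in either direction in 15.3%. Tet3 stood at 271, 293, 304 and 276 CPM in hairpin 2, against 248, 265, 256 and 220.1 CPM in control 2. Its log2 fold change was 0.21 (SE 0.0686, edgeR adjusted p = 0.112), beside a chromosome 6 median of -0.01. Fitted with the replicate number as a block it passed the threshold (log2 fold change 0.21, edgeR adjusted p = 0.00645), as it did with the block and scaling within chromosomes together (0.22, adjusted p = 0.00538) and without both replicate 4 libraries (0.17, adjusted p = 0.0255) and with limma voom (0.17, adjusted p = 0.0317). In set 1 Tet3 stood at 91.9, 59.2 and 55.8 CPM in hairpin 1, against 50.6, 65.6 and 63.0 CPM in control 1. Only hairpin 1 replicate 1 lay above the controls, and without it the log2 fold change of 0.21 (SE 0.25; chromosome 6 median 0.11) became -0.06.

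Tet1 was near the limit of detection. Its counts were 1, 3 and 0 in hairpin 1, against 0, 0 and 2 in control 1, all at or under a floor of 3 counts, so no fold is given for set 1. In set 2 its counts were 25, 41, 11 and 13 in hairpin 2, against 20, 14, 27 and 17 in control 2. Scaled to depth these are 1.11, 1.62, 1.19 and 1.08 CPM in hairpin 2, against 0.909, 0.702, 1.03 and 0.682 CPM in control 2. The groups did not overlap, the log2 fold change was 0.61 (SE 0.233, edgeR adjusted p = 0.176), and the chromosome 10 median was 0.004. Tet2 stood at 42.7, 16.3 and 10.8 CPM in hairpin 1, against 16.2, 19.2 and 14.7 CPM in control 1. It stood at 92.2, 111, 114 and 90.2 CPM in hairpin 2, against 101, 92.7, 110 and 81.0 CPM in control 2. As for Dnmt3a, hairpin 1 replicate 1 alone was high in set 1: the log2 fold change was 0.48 (SE 0.499; chromosome 3 median 0.15) with it and -0.30 without it. In set 2 the groups overlapped (log2 fold change 0.08, SE 0.107; chromosome 3 median -0.001).

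Smchd1 stood at 77.9, 60.3 and 57.8 CPM in hairpin 1, against 46.8, 67.2 and 43.6 CPM in control 1. It stood at 89.8, 102, 107 and 83.9 CPM in hairpin 2, against 88.2, 90.4, 98.0 and 82.6 CPM in control 2. The groups overlapped in both sets, and the log2 fold changes were 0.31 (SE 0.242) and 0.09 (SE 0.0857), beside chromosome 17 medians of -0.06 and -0.02. Leaving out hairpin 1 replicate 1 gave 0.17 in set 1, and leaving out control 1 replicate 2 gave 0.53 (edgeR adjusted p = 0.688).

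**Figure D5:**
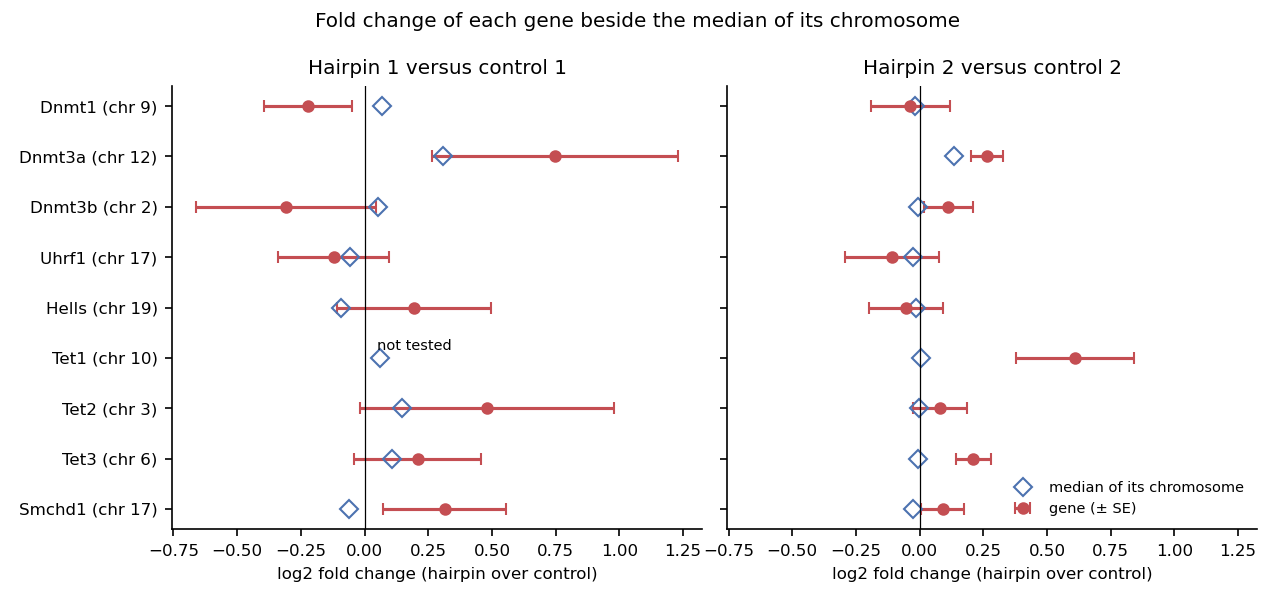
Log2 fold change of each gene (circles, with the SE) and the median of the other genes of its chromosome (open diamonds), for hairpin 1 versus control 1 on the left and hairpin 2 versus control 2 on the right. Dnmt3a is the gene whose chromosome is shifted most, at 0.31 in set 1 and 0.13 in set 2, and Tet1 was not tested in set 1.

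The difference between the hairpin effects, hairpin 2 minus hairpin 1, was tested in 1 model of all 14 libraries. Tet1, at or under the floor in every library of set 1, has no difference to give. edgeR called 0 of the other 8 genes, against 0.412% of 15043 tested genes (0.0465% higher and 0.366% lower), and none had an unadjusted p under 0.05 (12% of all tested genes did). The differences ran from -0.49 for Dnmt3a (SE 0.441) to 0.40 for Dnmt3b (SE 0.287), with adjusted p from 0.611 to 1.00. The SE ran from 0.220 for Smchd1 and Tet3 to 0.465 for Tet2. The call of Dnmt3a in set 2 is therefore not shown to be particular to hairpin 2.

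Of 88 genes in 8 lists of the wider pathway, 63 were tested in each set, and 3 passed the test in set 2 and none in set 1. The 3 calls are 4.76% of those tested, below the 6.05% of all tested genes, so the count is no result about the pathway as a whole. Among 9 partners of de novo methylation, 7 were tested in each set, and in set 2 Zfp57 was lower and Nsd1 higher. Zfp57, a zinc finger protein that keeps imprinted control regions methylated, stood at 4.24, 5.29, 5.19 and 5.65 CPM in hairpin 2, against 10.5, 10.9, 9.89 and 15.1 CPM in control 2. The hairpin 2 libraries all lay below the control 2 libraries, as in 8.42% of all tested genes. The log2 fold change of Zfp57 was -1.20 (SE 0.161, edgeR adjusted p = 0.00206), with a chromosome 17 median of -0.02. It was called in all 18 fits run on set 2, with adjusted p up to 0.0111. In set 1 Zfp57 stood at 7.72, 11.3 and 8.48 CPM in hairpin 1, against 11.2, 13.8 and 9.43 CPM in control 1, and the groups overlapped (log2 fold change -0.32). Nsd1, a histone H3K36 methyltransferase whose mark Dnmt3a can bind, stood at 131, 151, 152 and 160 CPM in hairpin 2, against 120, 132, 118 and 122 CPM in control 2. Its log2 fold change was 0.27 (SE 0.0699, edgeR adjusted p = 0.0488) and the groups overlapped by 1 library each. It lies on chromosome 13, whose median was 0.19, and with scaling within chromosomes the fold change was 0.09 (adjusted p = 0.602). The Nsd1 call was also lost without any 1 of the control 2 libraries or of hairpin 2 replicates 2 to 4 (adjusted p 0.0511 to 0.138), with DESeq2's size factors (0.0502) and without the filter on low counts (0.0514). In the joint model of all libraries its adjusted p was 1.00.

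Among 7 enzymes linked to the cofactor or regulation of the Tet proteins, all tested, Idh1 was lower in hairpin 2. Idh1, the cytosolic isocitrate dehydrogenase that makes 2-oxoglutarate, stood at 109.3, 108.8, 117 and 83.8 CPM in hairpin 2, against 134, 138, 151 and 154 CPM in control 2. The hairpin 2 libraries all lay below the control 2 libraries, as in 8.42% of all tested genes. The log2 fold change was -0.46 (SE 0.0972, edgeR adjusted p = 0.0201; chromosome 1 median 0.01). Without control 2 replicate 2, control 2 replicate 3 or hairpin 2 replicate 2 the adjusted p was 0.0547, 0.0594 and 0.0563, and in the joint model of all libraries it was 0.889. In set 1 Idh1 averaged 316 ± 121 CPM in hairpin 1 and 250 ± 56.7 CPM in control 1 (SD, n = 3 each; log2 fold change 0.33, edgeR adjusted p = 0.854).

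The other lists held no called gene in either set. They were 9 partners of maintenance, 10 readers of methylated CG, 7 readers of unmethylated CG islands, 13 genes of the excision of oxidised methylcytosine and 14 genes of the methyl donor cycle. In the blocked fit of set 2, 13 of the 63 tested genes of the 8 lists were called (20.6%), a share near the 20.4% of all tested genes. The partners of maintenance Cdca7, which works with Hells, and Paf1 were lower. In that fit the readers Mbd3, Cxxc5, Kdm2b and Kmt2a, the excision genes Polb and Gadd45g and the methionine synthase gene Mtr were higher. Nsd2 joined Nsd1 among the partners of de novo methylation called higher. Kdm2b and Nsd2 lie on chromosome 5 (set 2 median 0.12), and Gadd45g, Mtr and Nsd1 on chromosome 13 (0.19). With the block and scaling within chromosomes together, these genes and Paf1 lost the call. Cdca7, Mbd3, Cxxc5, Kmt2a and Polb kept it, and Setd2 was called only there. Median log2 fold changes of these lists without the block ran from -0.18 to 0.26 in set 1 and from -0.06 to 0.12 in set 2. Of the partners of maintenance, the sliding clamp Pcna averaged 379 ± 111 CPM in hairpin 1 and 326 ± 70.6 CPM in control 1, and the deubiquitinase Usp7, which stabilises Dnmt1, averaged 248 ± 8.80 CPM in hairpin 2 and 250 ± 12.9 CPM in control 2. The H4K20 monomethyltransferase Kmt5a averaged 259 ± 8.31 CPM in hairpin 1 and 255 ± 33.5 CPM in control 1, and in set 2 it averaged 249 ± 20.8 CPM in hairpin 2 and 225 ± 5.41 CPM in control 2. None of these differences passed the test.

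Of the readers of methylated CG, Mbd3 averaged 219 ± 60.5 CPM in hairpin 1 and 294 ± 38.1 CPM in control 1, and Mbd2 averaged 177 ± 11 CPM in hairpin 2 and 168 ± 3.34 CPM in control 2. Gatad2a, a partner of both in the NuRD complex, averaged 129 ± 26.0 CPM in hairpin 1 and 146 ± 4.94 CPM in control 1, and in set 2 it averaged 167 ± 4.62 CPM in hairpin 2 and 171 ± 1.95 CPM in control 2. Among the readers of unmethylated CG, the demethylase Kdm2a averaged 168 ± 81.0 CPM in hairpin 1 and 162 ± 16.8 CPM in control 1, and in set 2 it averaged 256 ± 32.0 CPM in hairpin 2 and 244 ± 29.5 CPM in control 2. Other readers act in H3K4 methylation: Cxxc1 averaged 90.2 ± 8.06 CPM in hairpin 1 and 112 ± 18 CPM in control 1, and Kmt2b averaged 158 ± 10.3 CPM in hairpin 2 and 160 ± 6.42 CPM in control 2.

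In the excision list, Parp1, a sensor of DNA breaks, averaged 121 ± 20.6 CPM in hairpin 1 and 150 ± 11.2 CPM in control 1, and in set 2 it averaged 397 ± 23.2 CPM in hairpin 2 and 368 ± 21.2 CPM in control 2. Xrcc1, a scaffold of single-strand break repair, averaged 55.2 ± 12.6 CPM in hairpin 1 and 67.6 ± 7.33 CPM in control 1, and the stress gene Gadd45b averaged 116 ± 20.5 CPM in hairpin 2 and 113 ± 5.48 CPM in control 2. In the methyl donor cycle, Mat2a, which makes S-adenosylmethionine, averaged 320.0 ± 13.9 CPM in hairpin 1 and 336 ± 92.9 CPM in control 1. Ahcyl1, a relative of the enzyme that clears S-adenosylhomocysteine, averaged 679 ± 33.5 CPM in hairpin 2 and 683 ± 57.0 CPM in control 2. The mitochondrial serine enzyme Shmt2 averaged 238 ± 86.4 CPM in hairpin 1 and 287 ± 27.6 CPM in control 1, and in set 2 it averaged 212 ± 125 CPM in hairpin 2 and 206 ± 93.3 CPM in control 2. Among the partners of de novo methylation and the cofactor enzymes in set 1, Trim28, the co-repressor that Zfp57 binds, averaged 607 ± 188 CPM in hairpin 1 and 721 ± 157 CPM in control 1. There Nsd2, another H3K36 methyltransferase, averaged 233 ± 27.9 CPM in hairpin 1 and 251 ± 17.2 CPM in control 1, and Idh3a, of the mitochondrial citrate cycle, averaged 279 ± 64.3 CPM in hairpin 1 and 209 ± 43.5 CPM in control 1.

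Germline genes that are known to be held silent by promoter methylation in body cells had low counts. Of 20 such genes, 2 passed the filter on low counts in each set and none was called. Their summed level was 2.86 to 5.83 CPM in hairpin 1, against 3.43 to 5.31 CPM in control 1, and 4.59 to 7.47 CPM in hairpin 2, against 3.97 to 5.54 CPM in control 2, where only 4 of the 20 are listed. Brdt, a testis bromodomain gene, averaged 1.43 ± 0.359 CPM in hairpin 1 and 1.72 ± 0.777 CPM in control 1, and in set 2 it averaged 3.53 ± 1.04 CPM in hairpin 2 and 2.64 ± 0.26 CPM in control 2 (log2 fold change 0.37, edgeR adjusted p = 0.361). The synaptonemal gene Sycp1 averaged 1.92 ± 1.12 CPM in hairpin 1 and 1.80 ± 1.61 CPM in control 1, and the germ cell helicase Ddx4 averaged 1.72 ± 0.366 CPM in hairpin 2 and 1.76 ± 0.383 CPM in control 2. Differences in most of these genes were not detectable at this depth.

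Markers of cell state moved with hairpin 2 beside Dnmt3a and Tet3. Of 9 epithelial markers, 4 were called lower by edgeR (Cdh1, Krt8, Krt18 and Cdx1) and none higher. With the replicate number as a block, 6 were called lower. Over all tested genes, 4.01% were called lower and 2.04% higher, and 10.1% lower and 10.2% higher with the block. The sum of the epithelial markers was 4810 to 5460 CPM in hairpin 2, against 6060 to 6200 CPM in control 2. Of 10 enterocyte markers, 4 were tested and 3 were called lower. The sum of this list was 10.5 to 15.7 CPM in hairpin 2, against 54.7 to 67.7 CPM in control 2, and Sis was at or near 0 in both groups. Of 7 goblet cell markers, all tested, 1 was called lower, with 4 lower and 1 higher in the blocked fit. Of 6 Paneth cell markers, 4 were tested and none was called, with 2 lower in the blocked fit. Of 7 fibroblast markers, 3 were tested, with Pdgfra called higher and Pdgfrb lower. Of 8 intestinal stem cell markers, 7 were tested, and 3 were called lower (Smoc2, Msi1 and Lrig1, the last with a log2 fold change of -0.99) and none higher, with 4 lower and 1 higher in the blocked fit. Their sum, most of it Axin2, with 1580 ± 146 CPM in hairpin 2 and 1490 ± 120 CPM in control 2, came to 2080 to 2390 CPM in hairpin 2, against 2050 to 2370 CPM in control 2. The part of these shifts in the differences of Dnmt3a, Tet3, Zfp57 and Idh1 was not tested.

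The genes whose library-to-library pattern was most like that of each gene were sought among 9325 genes, by Spearman's rho of the deviations from group means over all 14 libraries. These values are descriptive, since the libraries share their depth and the same outlying replicates. The nearest to Uhrf1 was Pold3, a subunit of the replicative DNA polymerase delta (0.982), and the nearest to Dnmt1 was Prim2, a subunit of primase (0.934), followed by Ubap2 (0.921). Dnmt3a lay nearest to Map3k3 on chromosome 11 (0.982) and Mlh3 on its own chromosome (0.965). Tet2 lay nearest to Usp32 (0.987) and Notch2 (0.982), Tet3 to Tnrc6a (0.960) and Ppp2r1b (0.934), and Smchd1 to Npat (0.991) and Usp33 (0.987). The highest values for Hells were with Ttpal (0.947) and Mdm1 (0.943), and for Dnmt3b with Cars2 (0.969) and Ubxn2b (0.960). Tet1, with few counts, had the lowest, with Brwd1 (0.854) and Herc3 (0.847). Among the 9 genes themselves, Tet2 and Smchd1 were most alike (0.851), followed by Tet2 and Tet3 (0.741), while Dnmt3a and Uhrf1 ran opposite to each other (-0.622).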

How the data were processed

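Poly(A) RNA of 14 organoid libraries was measured, and the authors deposited 1 file of whole-number counts per gene for each library, with no normalisation that the values show. bcl2fastq 2.20, FastQC, STAR, featureCounts, DESeq2 and the build GRCm38 appear per the submitters' processing notes, and versions or settings beyond these were not given in the sources used here. Symbols and exon lengths came from GENCODE M21, and promoter windows from RefSeq (GRCm38.p6). CPM are counts over TMM-scaled library totals, and CPM per kb are divided by the length of merged exons. Dnmt3a shares 133 exon bases with the antisense gene Dnmt3aos (count of 1 in set 1) and Tet2 shares 43 with Gm42567 (count of 6), and the pseudogene Dnmt3a-ps1 could take reads of Dnmt3a. No library pair agreed within sampling noise.

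Each set was fitted alone with edgeR 4.0.16 (quasi-likelihood test, TMM, filterByExpr, R 4.3.3), with Benjamini-Hochberg adjustment over all tested genes and a threshold of 0.05. One model of all libraries gave the difference between hairpins. For chromosome medians the mean had to reach 5 CPM, and the gene itself was left out, and log2 CPM per library used a pseudocount of 0.5. The alternatives were DESeq2 1.42.0, limma 3.58.1 voom with library weights, DESeq2's size factors, no filter, the replicate number as a block, scaling within chromosomes, the joint model and leaving out libraries. The fits were checked on simulated counts with known folds of 2 or more in either direction and a capped spread between libraries. The simulation held no chromosome shift, pairing or outlying library. It therefore says nothing about differences as small as those of the 9 genes. The genes and lists were chosen with earlier results of these data known. Named genes were the 9 genes with Kmt5c and Kmt5b, each list's called genes or else its 2 most abundant tested genes, the neighbours of Dnmt3a, and the 2 genes most like each of the 9.

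The labels state no pairing of same-numbered libraries. Across genes of set 2, deviations of same-numbered hairpin and control libraries from group means correlated with r = 0.323, 0.214, 0.333 and 0.66. All lay above the limit of 0.1, so from the data the numbers were taken to pair the samples there. Among replicates 1 to 3, differently numbered pairs also lay above the limit, with r from 0.15 to 0.265. Hairpin 2 replicate 2 correlated more with control 2 replicates 1 (0.247) and 3 (0.223) than with replicate 2. Only the replicate 4 pair stood apart, so the pairing of replicates 1 to 3 behind the blocked fits is not shown. In set 1 r was 0.254, -0.004 and 0.287, and the numbers were not taken to pair the samples. One gene that the rule for similar patterns would name is not reported here.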

Additional observations from a re-analysis of the deposited data

Results flagged for a closer look

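In hairpin 2, replicate 4 lay far below the other libraries for Uhrf1, at 61.6 CPM against 102, 108 and 103 CPM in hairpin 2 replicates 1 to 3. The same library stood apart for Hells, at 80.0 CPM against 105, 105 and 107 CPM. In both cases the gap to the nearest library was large for a group of 4, and chance marks about 1 in 20 groups in this way. Both marks come from the same library, so they are not separate observations. Control 2 replicate 4, with 72.5 CPM of Uhrf1 and 75.7 CPM of Hells, was the lowest of its group as well. Whether the low S phase sum of these libraries, 1199 CPM in hairpin 2 replicate 4 and 1306 CPM in control 2 replicate 4, has a part in this was not tested.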

How the results depend on the processing

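In set 1, 0 of the genes described were called under any setting, while the calls over all genes numbered 22 with DESeq2, 8 with voom, 187 in the joint model and 0 to 1 with single libraries left out. In set 2 Dnmt3a was called alone, but 2 genes (Dnmt3a and Tet3) were called with the replicate block, with voom and without both replicate 4 libraries, 0 with scaling within chromosomes or in the joint model, and 0 to 1 with single libraries left out. With the replicate block and scaling within chromosomes together the single call was Tet3. Over all genes the set 2 calls numbered 2880 with the replicate block, 2361 with the block and scaling within chromosomes, 2466 with voom, 2396 without both replicate 4 libraries, 1346 with DESeq2 and 120 in the joint model. They ran from 453 to 1409 with single libraries left out: 516, 453, 526, 473 and 564 without control 2 replicates 1 and 2 and hairpin 2 replicates 1 to 3, and 1409 without hairpin 2 replicate 4. Of the calls, 288 were higher and 566 lower, against 151 and 521 with scaling within chromosomes. For the difference between hairpins the calls numbered 395 with DESeq2, 1323 with voom and 27 to 959 with single libraries left out, and 0 of the genes described were called under any setting. Beyond the blocked values given beside the results, the replicate block changed no call of the 9 genes.

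Directions that turned were all of uncalled differences, and the cause was not tested. Dnmt1 in set 2 became 0.0202 on the log2 scale without both replicate 4 libraries and 0.0224 with voom, and Tet2 in set 1 became -0.13 with voom. For the difference between hairpins, voom gave 0.11 for Dnmt3a, 0.20 for Tet2 and 0.13 for Tet3, and Tet3 was 0.0628 with scaling within chromosomes and 0.0223 with the replicate block. With single libraries left out, the set 1 values ran from -0.0156 to 1.09 for Dnmt3a, -0.30 to 0.86 for Tet2, -0.056 to 0.38 for Tet3 and -0.22 to 0.0583 for Uhrf1, where the lowest value of Dnmt3a, Tet2 and Tet3 was without hairpin 1 replicate 1. In set 2 they ran from -0.12 to 0.11 for Dnmt1, -0.17 to 0.0378 for Hells and -0.24 to 0.0461 for Uhrf1. For the difference between hairpins they ran from -0.77 to 0.24 for Dnmt3a, -0.74 to 0.34 for Tet2, -0.13 to 0.22 for Tet3 and -0.17 to 0.16 for Uhrf1. Depth limits Tet1, with at most 41 counts in a library, and the germline genes. Set and hairpin cannot be told apart.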
